A study of Homo sapiens with 15 samples.

Results

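Binding of wild-type MYC was described from the deposited list of 2527 WT-MYC peaks, 12.4% of the 20388 peaks in the 3 lists of the series. All peaks of that list were taken, whatever their width or position. The list stands for chromatin immunoprecipitation followed by sequencing (ChIP-seq) of HEK293 cells, a human embryonic kidney line, into which a retrovirus brought wild-type MYC with a FLAG tag. DNA bound to the tag was recovered with the anti-FLAG antibody M2. The matched control cells were transduced with the empty vector and went through the same FLAG precipitation, so they hold no tagged MYC but still have the cells' own MYC. There were 3 libraries from independent biological replicates in each of these groups. Tagged MYC came on top of endogenous MYC, and the labels give neither its level nor whether the transduced cells were a pool or a clone. The WDR5 list (17171 peaks, 3 libraries from HEK293 cells without a retrovirus) served as the set of sites for comparison in the same line. The WBM-MYC list (690 peaks, 3 libraries) came from FLAG precipitation of cells that expressed a MYC mutant deficient in WDR5 binding. It was used only beside the offsets and the order of WT-MYC pairs.

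MYC is a transcription factor that pairs with MAX and binds DNA, preferably at E-box motifs. It is found at the promoters of many active genes, above all those for ribosome production, metabolism and the cell cycle, and overexpressed MYC spreads to further active promoters. WDR5 is a subunit of histone methyltransferase complexes that mark active promoters, and MYC can bind it directly. The list gives hg19 chromosome, start and end for each peak, with no score and no value per library. Spread between replicates, enrichment over the vector libraries and read depth are therefore unknown. Intervals of shares and of ratios between chromosomes are exact 95% intervals (Clopper-Pearson for shares), intervals of differences in points are Newcombe intervals, and all cover counting error over peaks only. The genes and sequences at these coordinates were not analysed here, because the gene and promoter tables at hand are of another build, GRCh38.p14.

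Most WT-MYC peaks lay far from any other. Of the 2527 peaks, 2474 (97.9%) had the same width of 496 bp, so width says little about the sites. Overlapping peaks merged into 2424 regions that covered 1211.9 kb of the genome. Of these regions 2322 were single peaks, 101 were made of 2 peaks and 1 was made of 3. The median distance from a peak centre to the nearest other peak centre was 116.7 kb (interquartile range 29.8 to 386.2 kb). Most peaks thus had the next one far outside the length of a promoter. Another peak lay within 1 kb of 229 peaks (9.06%), within 10 kb of 378 (14.96%), within 100 kb of 1177 (46.6%) and within 1000 kb of 2241 (88.7%). At the other end, 286 peaks (11.3%) had no other centre within 1000 kb and 4 had none within 10000 kb.

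**Figure D1:**
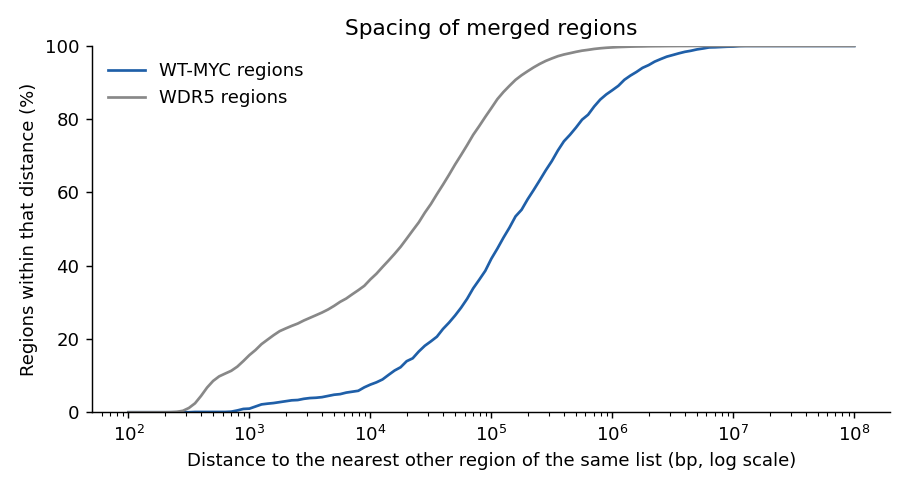
The x axis gives the distance from the centre of a merged region to the nearest other region of its own list (bp, log scale), and the y axis the share of regions within that distance (%). Within 10 kb lie 7.55% of WT-MYC and 36.3% of WDR5 regions, and within 100 kb 41.9% and 83.0%.

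Short distances were almost confined to overlapping peaks. Once overlapping peaks were merged, 0.990% of WT-MYC regions had another region within 1 kb, against 15.6% of the 15068 merged WDR5 regions. The median distance between merged regions was 138.7 kb for WT-MYC and 22.8 kb for WDR5. A longer list lies closer together for its length alone, so these values describe the lists and do not compare how the proteins bind.

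The offsets of overlapping WT-MYC peaks had a sharp lower edge and a tail above it. In all, 205 peaks (8.11%, 7.08 to 9.25%) shared at least 1 bp with another and formed 103 neighbouring pairs. In 100 of these pairs both peaks had the usual width of 496 bp. The starts of such pairs were a median of 217 bp apart, from 199 to 373 bp, so the partners shared between 123 and 297 bp. No neighbouring peaks of 496 bp started less than 199 bp apart, while 43 of the 100 pairs fell between 199 and 210 bp and 81 between 199 and 259 bp. All neighbours with smaller offsets involved a narrow peak, among them 3 overlapping pairs. Beyond the largest offset of an overlapping pair, 373 bp, there was an empty range up to the next offset at 690 bp. Above the tail the offsets thus had a gap, followed by 13 further neighbours between 690 and 1000 bp. The WDR5 list, whose widths vary, had neither edge nor gap: 718 neighbours started less than 199 bp apart and 1044 lay between 374 and 689 bp. The list of WBM-MYC, the mutant deficient in WDR5 binding, also had 0 of 667 neighbours in either range. Its 12 overlapping pairs had offsets from 203 to 296 bp, and 14 neighbours that did not overlap started up to 10 kb apart. So few close neighbours cannot show whether that list has the same edge and gap.

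**Figure D2:**
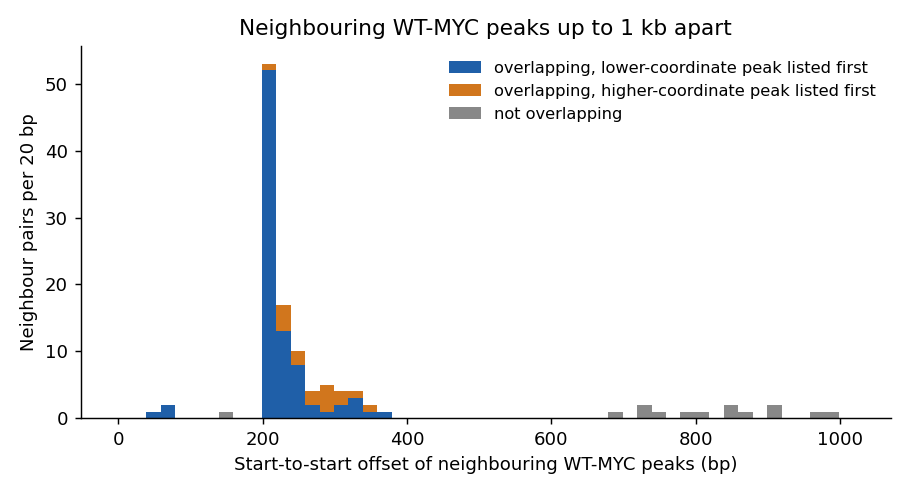
The x axis gives the start-to-start offset of neighbouring WT-MYC peaks up to 1000 bp, and the y axis the number of neighbour pairs per 20 bp, coloured by overlap and by which partner comes first in the file. Overlapping pairs pile up just above 199 bp, nearly all of them there with the lower-coordinate peak listed first. The few neighbours to the left of 199 bp include a narrow peak.

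The partners of a pair were also listed in a preferred order. The lists are not sorted by position, and no source used here says what orders them. Among WT-MYC neighbours that did not overlap, the peak with the lower coordinate came first in 1181 of 2401 pairs (49.2%, 47.2 to 51.2%), and in 49 of 95 pairs (51.6%) with starts up to 10 kb apart. Among overlapping pairs it came first in 86 of 103 (83.5%, 74.9 to 90.1%). The order followed the offset: 42 of 43 pairs (97.7%, 87.7 to 99.9%) at 199 to 210 bp, 31 of 38 (81.6%, 65.7 to 92.3%) at 211 to 259 bp, and 10 of 19 (52.6%, 28.9 to 75.6%) at 260 bp or more. The closest pairs thus had a nearly uniform order, and the widest ones showed none that these counts could resolve. Pooled over offsets, WDR5 pairs ran the same way, with 1568 of 2101 (74.6%) for overlapping and 7159 of 15047 (47.6%) for other neighbours. So did WBM-MYC pairs, with 10 of 12 and 323 of 655 (49.3%). By offset, WDR5 pairs had 76 of 80 (95%) at 199 to 210 bp. At 260 bp or more they kept a preference, with 651 of 1067 (61.0%, 58.0 to 63.95%). WBM-MYC had 2 of 2 there. Partners of WT-MYC pairs stood a median of 680 lines apart, and 2 pairs stood under 10 lines apart. These classes of offset were chosen after the values were seen and were given no test.

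The earliest pair in the file lay on chromosome 5, where the peak from 43120794 to 43121289 stood at line 41 and its partner, 200 bp further on, at line 1034. The next was on chromosome 13, a narrow peak from 92001255 to 92001447 at line 43 with a partner of the usual width that started 49 bp later, at line 841. Pairs with their first partner at lines 48, 60 and 63 followed on chromosome 3 (52719849 to 52720545), chromosome 1 (936052 to 936746) and chromosome 17 (61851117 to 61851680). In all 5 the lower-coordinate peak was listed first, and both partners overlapped a WDR5 peak. The only chain of 3 peaks spanned 1125 bp on chromosome 17, from 73030385 to 73031509, and the earliest of its peaks in file order, the last by position, stood at line 1196.

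Paired peaks overlapped WDR5 more often than single ones. A WDR5 peak lay on 189 of 205 overlapping WT-MYC peaks (92.2%, 87.6 to 95.5%) and on 1907 of 2322 single ones (82.1%, 80.5 to 83.7%). That is 10.1 percentage points more (Newcombe interval 5.33 to 13.4), with p = 9.54e-05 in a two-sided Fisher's exact test and the same value after Benjamini-Hochberg adjustment over 2 tests. Partners are not independent, and counting each merged region once gave 11.99 points (5.45 to 15.5; exact p = 0.000757). A merged region is wider than a single peak, however, and has WDR5 if any of its peaks does. Both raise its share by construction, so this value cannot settle how far dependence between partners matters. The difference between overlapping and single peaks did not pass the test when WDR5 had to cover at least 50% of the shorter peak (2.44 points, -3.79 to 7.64; exact p = 0.483).

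The same WDR5 peak usually shared at least 1 bp with both partners. This was so in 93 of the 103 pairs (90.3%, 82.9 to 95.3%), and 6 pairs had WDR5 on neither partner. Partners overlap each other, so a WDR5 peak that reaches both is likely wherever both have WDR5, and 93 pairs had WDR5 on both. The WDR5 centre lay between the partners' centres in 43 of these 93 pairs and outside in the others. WDR5 peaks under paired WT-MYC peaks had a median width of 518.5 bp (interquartile range 385.8 to 664.5 bp, 120 peaks), against 475 bp (384 to 624 bp, 2209 peaks) under single ones. Their median line in the WDR5 file was 2686 against 4124. The 2 ranges overlapped widely, and the part of WDR5 peak width in the difference was not tested. Of the 6 pairs without WDR5, 3 lay on chromosome 9.

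Beyond pairs, WT-MYC regions gathered in a limited number of clusters. A cluster was defined as at least 3 merged regions with neighbours at most 50 kb apart. There were 62 clusters on 15 chromosomes, and they held 228 peaks (9.02%, 7.93 to 10.2%). Most were small: 47 had 3 regions, 9 had 4 and 6 had more. Their median span was 45.4 kb, from 5.22 to 185.5 kb. The number rests on the distance chosen, with 15 clusters at 20 kb and 132 at 100 kb. Chromosomes 17 and 19 had 11 clusters each and chromosome 1 had 10, while the share of a chromosome's peaks in clusters was highest on chromosome 9 (26.9%, 32 of 119) and chromosome 16 (24.7%, 21 of 85).

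The cluster with the most regions lay near the end of the chromosome 9 coordinates in the list, from 140099893 to 140196217, with 8 regions and 10 peaks in 96.3 kb. Next came 7 regions on the same chromosome from 139838914 to 140024442. Neither span held a WDR5 peak. Chromosome 16 had 2 clusters of 6 regions, from 29984787 to 30103527 and from 30886437 to 31044911, in which WDR5 overlapped 2 of 6 and 4 of 7 peaks. Clusters thus differed in WDR5. Of the 2 clusters with 5 regions, the one on chromosome 1 from 155145344 to 155243638 had WDR5 on 5 of 5 peaks and 15 WDR5 peaks in its span. The one on chromosome X from 39955529 to 40013390 had none on its 5 peaks, and its earliest peak stood at line 1186. Over all 62 clusters, 32 had WDR5 on each of their peaks and 7 on none.

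Clustered peaks overlapped WDR5 less often than isolated ones. Isolated peaks were the 300 whose region had no other WT-MYC region within 1 Mb (11.9%, 10.6 to 13.2%). WDR5 lay on 156 of 228 clustered peaks (68.4%, 61.96 to 74.4%) and on 257 of 300 isolated peaks (85.7%, 81.2 to 89.4%), a difference of -17.2 points (-24.5 to -10.05) with p = 2.44e-06 in the same exact test and 4.89e-06 after adjustment. Peaks of the same cluster are not independent, and clusters were not tested as units, so this p-value can be too small and the interval too short. The other 1999 peaks stood near the isolated ones, at 84.2% (82.5 to 85.8%). Chromosome 9 carried much of the difference: 1 of its 32 clustered peaks had WDR5, against 155 of 196 elsewhere (79.1%). Leaving that chromosome out gave -7.13 points (-14.3 to -0.355; exact p = 0.0469), and without chromosomes 9 and 16, left out after the data were seen, it did not pass the test (-5.38 points, -12.7 to 1.41; exact p = 0.144).

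Density was uneven on the scale of 1 Mb. Of the fixed 1 Mb windows that held any peak, 1132 held WT-MYC and 551 of these held a single one. At the dense end, 117 windows with at least 5 peaks held 768 peaks (30.4%, 28.6 to 32.2%), and 11 windows had at least 10. In all, 258 of the 1132 windows with WT-MYC sufficed for 50% of WT-MYC peaks. For WDR5, 462 of the 2245 windows with a WDR5 peak held 50% of its peaks. A longer list fills more windows for its length alone, so these counts do not compare how concentrated the proteins are. Over the 2257 windows with either protein, the counts of both had a Spearman's rho of 0.593, given as a description, since neighbouring windows share gene density. Of these 2257 windows, 1125 had WDR5 and no WT-MYC.

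The densest window was chromosome 16 from 30 to 31 Mb, with 22 peaks in 19 regions, of which 12 overlapped one of 31 WDR5 peaks. Its peaks came in a lower group of 5 between 30006814 and 30103527 with WDR5 on 1, and, after 302.6 kb without a peak, a longer row from 30406138 on. In that row the pairs starting at 30418385, 30816686 and 30886437 each had WDR5 on both partners, and their first partners stood at lines 78, 197 and 183. The 3 last peaks, starting at 30933039, 30968977 and 30996583, had none. WDR5-bearing and WDR5-free peaks were thus neighbours within the same window.

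Chromosome 9 followed, with 17 peaks from 140 to 141 Mb and 16 from 139 to 140 Mb. WDR5 overlapped 2 of the 17 and 0 of the 16, and the windows held 2 and 0 WDR5 peaks. These windows were dense in WT-MYC alone, and when windows were displaced by 500 kb the one from 139.5 to 140.5 Mb became the densest of all, with 26 WT-MYC peaks and 1 WDR5 peak. The next windows were rich in both proteins. Chromosome 17 from 7 to 8 Mb held 13 WT-MYC peaks, 10 of them with WDR5, and 57 WDR5 peaks. Chromosome 19 from 1 to 2 Mb held 13, of which 11 had WDR5, and its 62 WDR5 peaks were the most of any window.

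**Figure D3:**
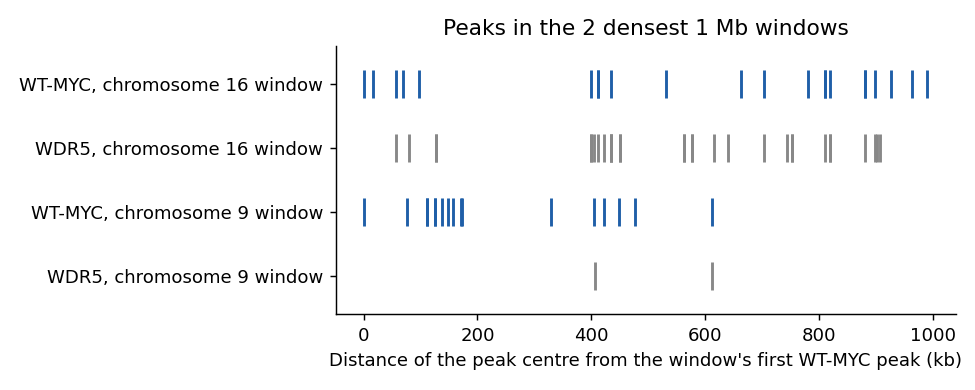
Each tick is a peak centre, placed by its distance (kb) from the first WT-MYC peak of the window, for the densest 1 Mb windows on chromosome 16 (22 WT-MYC and 31 WDR5 peaks) and chromosome 9 (17 and 2). WT-MYC and WDR5 ticks share many positions in the chromosome 16 window and few in the chromosome 9 window.

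At finer scale, 2070 windows of 100 kb held WT-MYC and 1709 of them a single peak. The fullest was chromosome 9 from 140.1 to 140.2 Mb with 10 peaks. The next 3 windows had 5 peaks each: chromosome 1 from 228.6 to 228.7 Mb, chromosome 9 from 139.9 to 140 Mb and chromosome 16 from 30.8 to 30.9 Mb, with WDR5 on 4, 0 and 5 of them. The fifth in order, chromosome 1 from 44.4 to 44.5 Mb, held 4 peaks with WDR5 on 3. It tied with other windows of 4 peaks and led them only by chromosome and position, since 17 windows had at least 4. Among the 100 kb windows with the most WDR5 peaks, the WT-MYC count varied. The fullest 100 kb window for WDR5, chromosome 19 from 1.2 to 1.3 Mb, held 16 WDR5 and 2 WT-MYC peaks, and chromosome 7 from 27.1 to 27.2 Mb held 13 and 0.

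Long stretches had WDR5 peaks and no WT-MYC peak. The one with the most WDR5 peaks, 86, ran for 20.2 Mb on chromosome 13 from 31248765 to 51483965. Chromosome 16 had 83 in 26.96 Mb from 31470890 to 58426353, a stretch that begins less than 1 Mb above its densest window. The next 3 lay on chromosome 11 from 107880010 to 118306792 (65 WDR5 peaks), chromosome X from 130964840 to 153140733 (61) and chromosome 11 from 18344370 to 34126958 (58). These stretches were picked for their WDR5 counts, so the counts are a description. Typical gaps were far shorter: the 2401 gaps between WT-MYC regions had a median of 321.8 kb and 3 WDR5 peaks, and 38 exceeded 10 Mb.

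Chromosomes differed in their WT-MYC peaks per 100 WDR5 peaks. Over the whole genome the value was 14.7. The highest were chromosome 9 with 20.9 (17.0 to 25.5; 119 WT-MYC and 570 WDR5 peaks), chromosome 21 with 20.2 (40 and 198) and chromosome 1 with 19.2 (360 and 1873). The lowest were chromosome 18 with 5.95 (3.35 to 9.84; 16 and 269), chromosome 4 with 8.53 (54 and 633) and chromosome 11 with 8.57 (77 and 898). Chromosome 21 rests on few peaks, with an interval of 14.01 to 28.5 that includes the genome's value. The value of chromosome 9 includes windows with many WT-MYC and hardly any WDR5 peaks. Among these were the windows from 136 to 137 Mb (7 WT-MYC and 0 WDR5 peaks), 139 to 140 Mb (16 and 0) and 140 to 141 Mb (17 and 2). The ratio of chromosome 9 without them was not computed. In the first 50% of each list chromosomes 9 and 18 were again highest and lowest, chromosome 21 fell to rank 6 of 23 and chromosome X moved from rank 20 to 9.

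**Figure D4:**
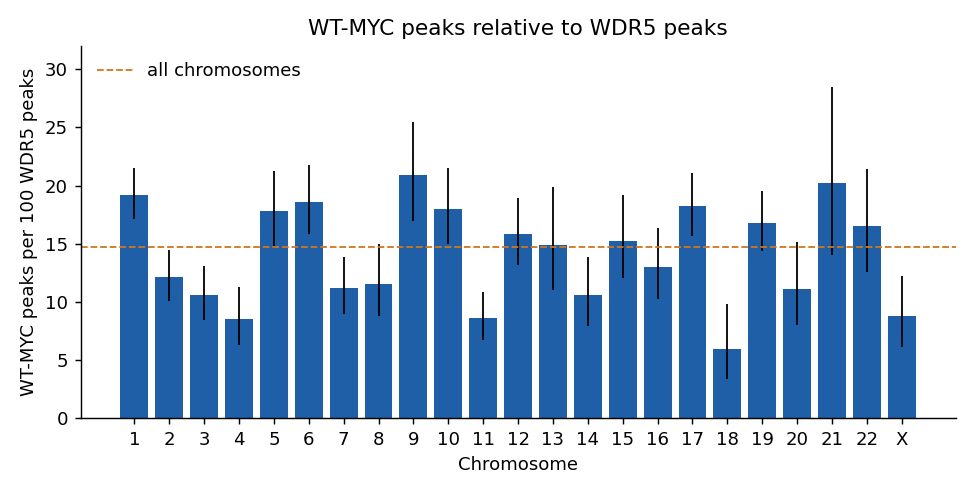
Bars give WT-MYC peaks per 100 WDR5 peaks for each of 23 chromosomes, with exact 95% intervals that cover counting error over peaks, and the dashed line is the value for all chromosomes, 14.7. Chromosome 18 is lowest at 5.95 and chromosome 9 highest at 20.9.

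Spacing also differed between chromosomes, in an order that matched that of this ratio only in part. Chromosomes 18 and 4 had the lowest ratios and the widest spacing, while the closest spacing was not on the chromosomes with the highest ratios. The median distance to the nearest other peak was 40.1 kb on chromosome 19, 54.4 kb on chromosome 17 and 62.6 kb on chromosome 16, against 956.1 kb on chromosome 4 and 1407.1 kb on chromosome 18. Isolated peaks made up 62.5% of the peaks of chromosome 18 (10 of 16) and 51.9% of those of chromosome 4 (28 of 54), but 2.51% of those of chromosome 19 (5 of 199). Overlapping peaks numbered 32 of 360 on chromosome 1, 25 of 211 on chromosome 17 and 24 of 191 on chromosome 6. Chromosomes 8 and 11 had none among 65 and 77 peaks.

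The head of the file held a different kind of peak from the rest. Peaks narrower than 496 bp numbered 53 (2.10%), with widths from 124 to 364 bp and a median of 207 bp. They made up 9 of the first 10 lines, 30 of the first 50 and 48 of the first 253, and their median line was 40. A single narrow peak stood beyond line 410, at line 2345 on chromosome 16. Fewer narrow than full-width peaks had WDR5, 31 of 53 (58.5%, 44.1 to 71.9%) against 2065 of 2474 (83.5%, 81.9 to 84.9%), a split chosen after the data were seen and not tested. Narrow peaks also have fewer bases to share with a WDR5 peak. Of the narrow peaks, 11 lay in groups on chromosomes 2, 14 and 22, and 0 of these 11 had WDR5.

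The first 10 peaks lay on 9 chromosomes. Line 1 was chromosome 11 from 66189198 to 66189377, 180 bp wide and without WDR5. Lines 2 and 3, on chromosome 17 from 49230776 to 49231057 and chromosome 7 from 4681560 to 4681886, had WDR5. Lines 4, 5 and 6 had none: chromosome 22 from 22550322 to 22550587, chromosome 2 from 89246785 to 89247148 and chromosome 14 from 107034756 to 107035030. Lines 7 and 8, on chromosome 21 from 40685587 to 40685852 and chromosome 19 from 45582341 to 45582582, had WDR5 again. Line 9, on chromosome 5 from 176264600 to 176265095, was the only one of full width and had none, and line 10, on the same chromosome from 154134395 to 154134656, had it. The leading positions were thus split evenly, 5 with and 5 without a WDR5 peak.

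Lines 4, 5 and 6 belonged to groups of narrow peaks. With narrow peaks chained at up to 1 Mb, chromosome 22 had 4 from 22453271 to 23223485, chromosome 2 had 2 from 89185346 to 89247148 and chromosome 14 had 5 from 106330744 to 107170225. None of these 11 overlapped WDR5, and the spans held 1, 0 and 0 further WT-MYC peaks. The remaining group, 2 narrow peaks on chromosome 7 from 1513744 to 2394519, had WDR5 on 1. Chromosomes 22, 2 and 14 carry the immunoglobulin lambda, kappa and heavy chain genes, and whether these peaks fall within them was not tested, since no hg19 annotation was at hand. Vector peaks at these positions were not analysed here.

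Paired and clustered peaks also made up larger shares at the head. Among the first 253 lines 14.2% overlapped another WT-MYC peak (36 peaks, 10.2 to 19.1%) and 16.2% lay in a cluster (41 peaks, 11.9 to 21.3%). In the 9 later blocks of 10% of the lines these shares ran from 5.14 to 9.13% and from 6.72 to 11.1%. Isolated peaks made up 8.30% of each of the first 2 blocks and 11.07 to 15.1% of the others. The median distance to the nearest other peak was 69.4 kb in the first block and 143.7 kb in the last. Early peaks thus sat closer to other WT-MYC peaks. These shares were not tested, and the intervals of the first block overlap those of some later ones.

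**Figure D5:**
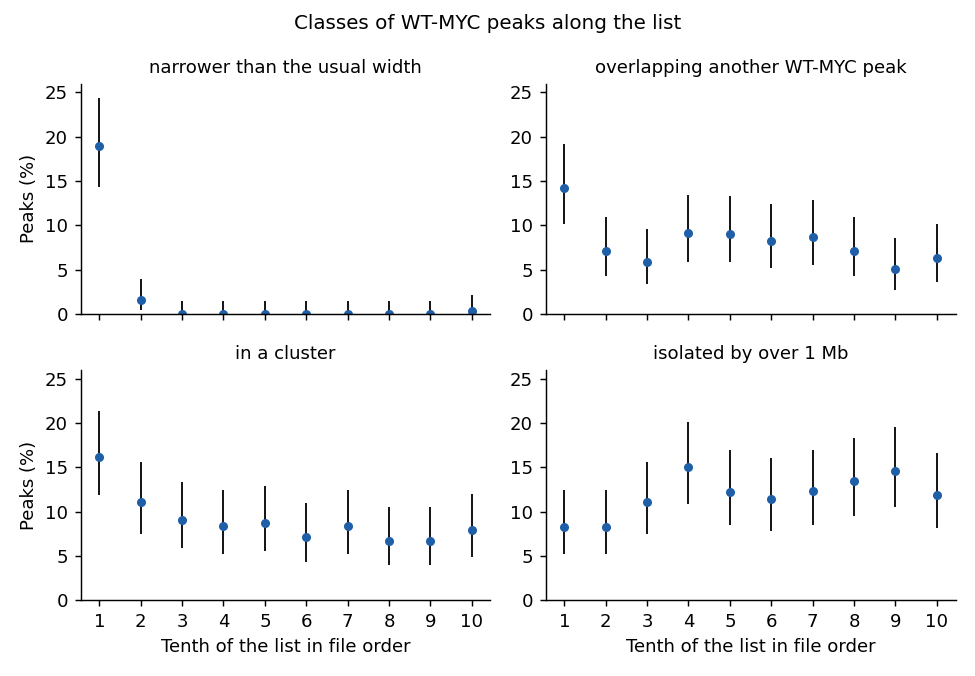
The x axis gives successive blocks of 10% of the WT-MYC list in file order and the y axis the share of peaks (%) in 4 classes, with exact 95% intervals over peaks. Narrow, overlapping and clustered peaks are most frequent in the first block, at 18.97, 14.2 and 16.2%.

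Relative to single WDR5 peaks, most WT-MYC peaks sat on 1 of them: 1756 overlapped 1, 335 overlapped 2, 3 overlapped 3 and 2 overlapped 4. The 431 peaks without WDR5 were often far from one. Their median distance to the nearest WDR5 edge was 28720 bp, 92 (21.3%) had one within 1000 bp, and 115 had none within 100 kb.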

How the data were processed

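The authors deposited their peaks as 3 lists (WT-MYC, WBM-MYC, WDR5) of chromosome, start and end in bp, without header or score. Bowtie 0.12.7, CASAVA 1.8.2 and hg19 are named, per the submitters' processing notes. For the peak caller, its threshold, the use of the vector libraries and the pooling of replicates nothing is stated in the sources at hand, so whether the fixed width and smallest offset come from such settings was not tested. Starts were read as 0-based and are printed 1-based. Peaks overlapped with at least 1 bp in common, and windows took peaks by their centres. Overlap and merging, done in Python 3.11.15, were tested on simulated data and checked with bedtools 2.31.1 (2096 peaks with WDR5 and 2424 regions by both). Shares have exact intervals (scipy 1.17.1), and 2 pairs of peak classes were compared with Fisher's exact test, treating peaks as units. Neighbouring peaks are not independent, so these p-values can be too small. Groups came from the labels. Named loci are the first 10 lines, the 5 densest windows of each size, the 5 largest clusters, the 5 earliest pairs and the chain of 3, the 5 stretches with most WDR5 peaks, and the 3 highest and lowest chromosomes. Other loci and the offset and narrow-peak classes were picked with their values in view. The subject, classes and rules were chosen with earlier results of these data known. The planned share at gene starts, target gene list and E-box search were not run, as annotation and sequence of hg19 were not used here.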

Additional observations from a re-analysis of the deposited data

How the results depend on the processing

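Of 24 alternative values, 13 stayed within the interval, the factor of 1.5 or the side of the threshold of the value reported, and none changed direction. Overlapping peaks made up 5.94% when 50% of the shorter peak had to be shared and 5.38% in the first 50% of the list. The median distance to the nearest peak was 138722.5 bp between merged regions and 241738 bp in the first 50% of the list, which holds fewer peaks. Clusters numbered 15 at 20 kb and 132 at 100 kb and held 2.14 and 20.7% of peaks, and 4.75% in the first 50% of the list at 50 kb. The WDR5 difference between overlapping and single peaks was 2.44 points with 50% of the shorter peak covered, and the one between clustered and isolated peaks was -5.38 points without chromosomes 9 and 16, an alternative added after the data were seen. The cause of these changes was not tested, including where a list was shortened. Leaving out a library and a stricter peak threshold could not be run, since the list has no values per library and no score. No paired analysis was possible because the list holds no values per replicate. Read depth is unknown, so sites bound below the threshold cannot be counted. No gene-start share was computed under any alternative.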
